A study of Rattus norvegicus with 13 samples.

Results

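Transcripts of the SLC25 family of mitochondrial carriers were measured in left ventricles of 45-week-old male rats, either wild type (WT) or overexpressing the β3-adrenergic receptor, spelled ADBR3 in the sample labels. The carriers were chosen by name: every gene on the array whose name begins with Slc25a, with all of its probes. This gave 45 of the 26115 gene names, with 60 of the 30367 probes and 128 of the 58717 spots that are not controls. The 13 one-colour arrays came from 4 WT rats and 5 ADBR3 rats. Hearts 1 and 2 of each group are separate labelings of the RNA of 1 rat and were averaged. WT heart 5 and ADBR3 heart 4 are repeat hybridizations of an array that the labels do not name. They add no rat and were kept out of the tests. Below, a rat bears its genotype and heart number, which are 1, 3, 4 and 6 among WT and 1, 3, 5, 6 and 7 among ADBR3 rats. How the receptor was overexpressed, in which cells, and whether the rats of a group come from 1 founder line is not stated in the labels.

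SLC25 carriers are small proteins that sit, with few exceptions, in the inner mitochondrial membrane. They are built from repeats of paired membrane helices and open in turn to each side of the membrane, which moves a nucleotide, phosphate, a carboxylic acid, an amino acid, carnitine, a cofactor or iron across. Heart muscle depends on them to send ATP out to the myofibrils, to bring in ADP and phosphate, to take up acyl groups for oxidation, and to carry reducing power from the cytosol by the malate-aspartate shuttle. Each repeat holds a signature with a proline, an acidic residue and a basic residue at fixed spacing.

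A 60-base probe on the array reports 1 short stretch of a carrier's transcript, so some of the carrier probes are shown here. They are given 5′ to 3′ in the direction of the transcript, from the scanner files. Probes called second are not those used for the main value of their gene. Positions are those in the files, on build rn4. The files do not settle which probes lie in the coding part. All 60 bases are printed where some reading frame holds no stop and the probe ends early in the transcript. This does not show that such a probe is coding. For the others only the first 30 bases are printed. The first probe, of the citrate carrier, is shown because it holds the codons of the family signature, which are in capitals. Next come the ADP/ATP carriers and the 2-oxoglutarate/malate carrier of heart muscle. Other carriers whose values are described below are Slc25a6, Slc25a17, Slc25a21, Slc25a28 with its probes and Slc25a42 with its second probe.
Slc25a1: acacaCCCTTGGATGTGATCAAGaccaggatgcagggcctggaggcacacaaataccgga
Slc25a4: ccagaccataaggaatacctcagaaaaatg
Slc25a5, first probe: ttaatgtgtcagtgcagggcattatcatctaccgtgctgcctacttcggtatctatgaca
Slc25a5, second probe: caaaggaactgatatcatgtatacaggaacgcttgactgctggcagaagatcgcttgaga
Slc25a6: agatcaagaagtacacataattatgtccta
Slc25a11: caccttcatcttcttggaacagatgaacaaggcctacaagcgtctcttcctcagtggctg
Slc25a17: gtccattcatgcaagctctgatcagataag
Slc25a21: gggcaagctcaccaaaacattttgaaaata
Slc25a28, first probe: tgctttagacttgcagaggataagcagcac
Slc25a28, second probe: tatgaattcttcaaatacctaatcacgaag
Slc25a42, second probe: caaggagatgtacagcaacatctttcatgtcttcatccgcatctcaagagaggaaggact

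The Slc25a1 probe lies at chr11:85045916-85046057 on the plus strand, a span of 142 bases, so it crosses an intron. The Slc25a4 probe lies at chr16:49357074-49357133 on the plus strand, and the Slc25a21 probe at chr6:77124506-77124565 on the minus strand. Those of Slc25a5 lie at chrX:8073675-8073734 and, across an intron, chrX:8072602-8072997, both on the minus strand. The Slc25a6 probe lies at chr18:71854096-71854155 and was designed to a predicted non-coding transcript model whose accession did not match the RefSeq table. RefSeq lists a protein-coding gene under that symbol, and whether this probe reports it was not tested. The Slc25a17 probe lies at chr7:119645410-119645469 on the minus strand. The family signature was searched as CCNNNNGANNNNNNNAAA, CCNNNNGANNNNNNNAAG, CCNNNNGANNNNNNNCGN, CCNNNNGANNNNNNNAGA and CCNNNNGANNNNNNNAGG, which cannot overlap as whole matches at 1 start. It was found in 1 of the 60 carrier probes, that of Slc25a1, and in 1.75% of all probes of the same length. On the opposite strand, 2 carrier probes and 1.12% of all probes held it. These matches describe the probes and say nothing about the proteins behind the others.

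All levels below are log2 processed signal minus the array's 75th percentile. A level depends on the probe, so levels are compared between rats for 1 probe and never between genes. The 75th percentile ranged from 760.4 to 908.7 between arrays, with 55.2% to 67.8% of spots well above background and 0 saturated spots. The cardiomyocyte markers Myh6, Myl2, Myl3, Tnnt2, Tnni3, Actc1, Ryr2 and Mb were well above background on all 13 arrays, with group means of their average level of 7.76 in WT and 7.74 in ADBR3 rats. The Adrb3 probe rose above background in ADBR3 6 and in no other rat (1 of 7 ADBR3 arrays, 0 of 6 WT arrays), and it stood there at -4.10 against -7.15 to -5.42 in the other 8 rats. Of the markers of other cells, 5 of 5 endothelial, 5 of 5 fibroblast and 4 of 6 erythroid genes were tested. So were 1 of 5 lymphocyte and 4 of 5 macrophage genes. Of all these markers 0 passed the threshold, where 0.00651% of all genes did. Higher and lower in ADBR3 rats were 1 and 4 endothelial, 5 and 0 fibroblast, 3 and 1 erythroid, and 2 and 2 macrophage genes. Cd3g was lower, with an unadjusted limma p of 0.049 and an adjusted p of 0.526. The mean levels of these lists in WT and ADBR3 rats were 1.42 and 1.41 (endothelial), 1.34 and 1.45 (fibroblast), and 0.401 and 0.267 (erythroid). They were -2.04 and -2.73 (lymphocyte, Cd3g alone), and -0.705 and -0.678 (macrophage). Which Adrb3 sequence was introduced is not given, so the Adrb3 probe does not check the labels.

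Most of the carriers were detected in these hearts. Of the 60 probes, 43 were well above background on all 13 arrays and 7 on none. After a filter that asked for signal well above background in 4 or more of the 9 rats, 46 probes and 35 genes were tested. The 10 carriers that did not pass were Slc25a2 and Slc25a15 (ornithine carriers), Slc25a18 (a glutamate carrier), Slc25a27 (an uncoupling protein relative known from brain), Slc25a31 (the ADP/ATP carrier of testis), Slc25a41 (an ATP-Mg/phosphate carrier), and Slc25a45, Slc25a47, Slc25a48 and Slc25a54. Their probes were well above background on 0 to 2 arrays. Slc25a2, Slc25a31, Slc25a41, Slc25a45 and Slc25a48 were not well above background on any array of either group, so the arrays give no difference for them. Slc25a54 reached that mark on 2 arrays, both of ADBR3 hearts, and stood at -3.87 in ADBR3 7 against -7.25 to -6.30 in the other 8 rats. Among the tested, Slc25a37, the mitochondrial iron carrier of the red cell lineage, was near the limit, being well above background on 3 WT and 3 ADBR3 arrays. Slc25a40, a glutathione carrier, was so on 5 WT and 7 ADBR3 arrays. The other 33 tested carriers were well above background on all 13.

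No carrier differed between ADBR3 and WT hearts past the threshold. In limma over 15367 genes, 0 of 35 carriers had an adjusted p under 0.05, and the smallest was 0.388, for Slc25a21. The background was close to empty as well, since 0.00651% of all genes passed (1 gene, Ak1). At an unadjusted limma p under 0.05 there were 3 carriers, Slc25a21 and Slc25a3 lower and Slc25a17 higher, where 9.44% of all genes stood under that mark (3.15% higher and 6.29% lower). In the exact permutation test of single genes, 4 of the 35 had a two-sided p under 0.05 (the same 3 and Slc25a6), where 8.97% of all genes did. That test cannot go below 0.00794 with 4 against 5 rats. Of the 35, 17 were higher and 18 lower, and the median difference was -0.00034 on the log2 scale against -0.00892 over all genes. The split moved with the scaling, to 26 higher and 9 lower with median scaling, where the median over all genes was 0.0326, and to 23 and 12 with quantile normalization, where it was 0.0159. Differences ran from -0.46 to 0.21, and 26 of the 35 (74.3%) were under 0.1 in size, against 58.4% of all genes.

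**Figure D1:**
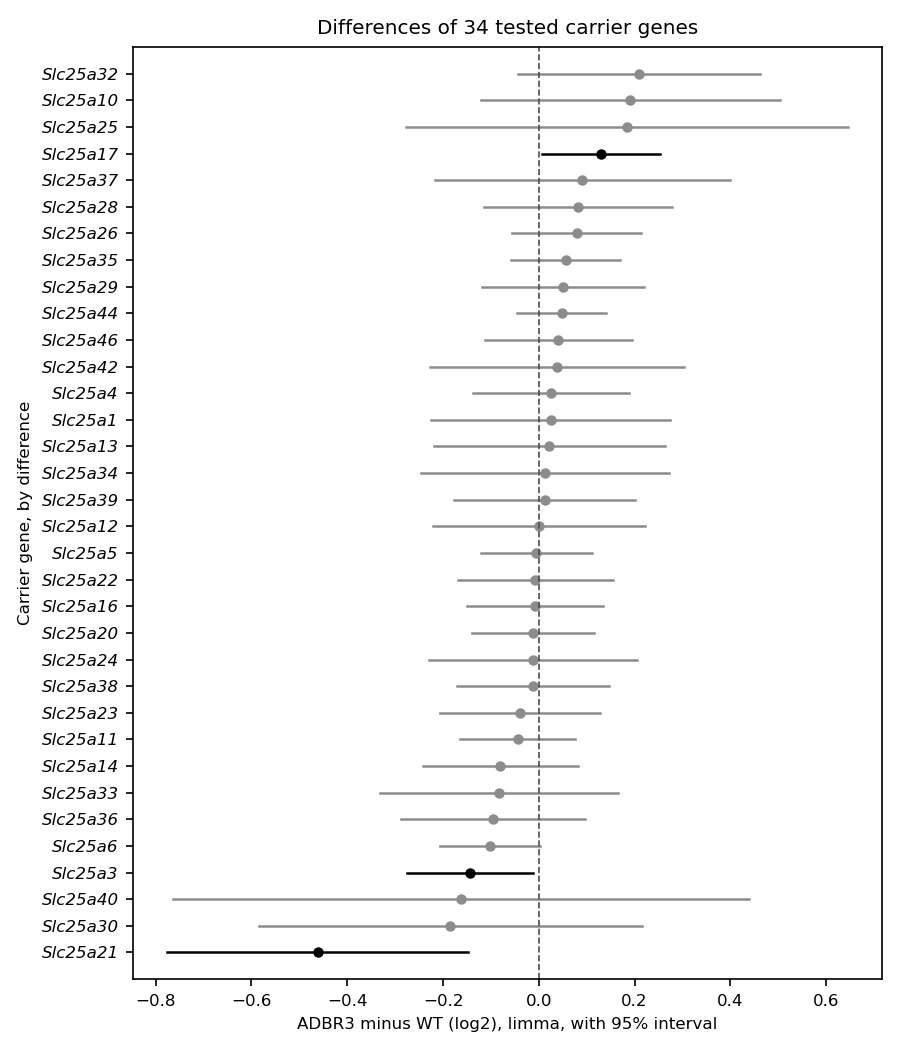
Differences of 34 of the 35 tested carriers between ADBR3 and WT rats on the log2 scale (x axis), 1 gene per line, with limma's 95% interval as a bar. Black marks the 3 genes at an unadjusted p under 0.05, and the intervals of the other 31 include 0.

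**Figure D2:**
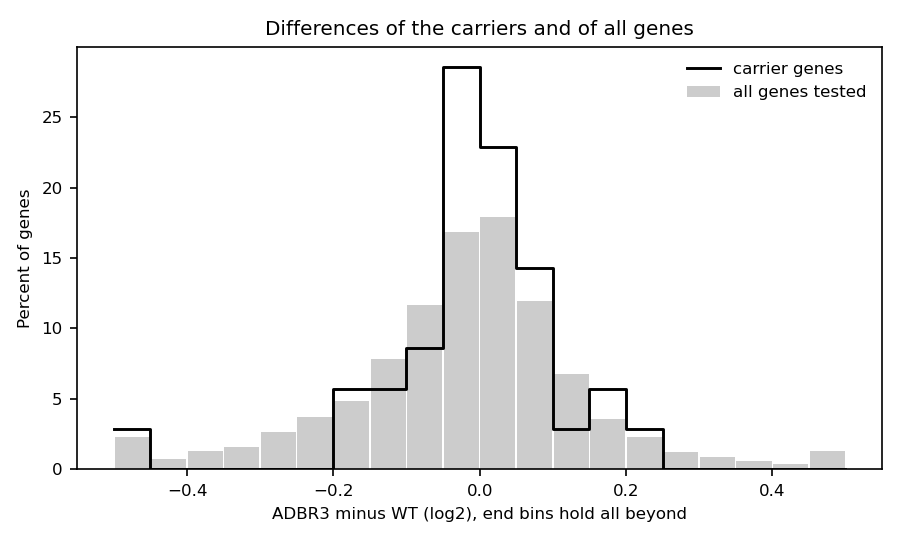
Percent of genes (y axis) by size of the ADBR3 minus WT difference in steps of 0.05 log2 (x axis), as grey bars for all 15367 genes tested and as a black line for the 35 carriers. The steps on either side of 0 hold 28.6% and 22.9% of the carriers and 16.9% and 17.9% of all genes.

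The median SD between rats of a group was 0.111 for the carriers and 0.133 over all genes, and it ran from 0.031 for Slc25a44 to 0.448 for Slc25a40. Between the separate labelings of 1 rat, the SD of the log2 difference over the 35 carriers was 0.123 for WT 1 and 0.153 for ADBR3 1. Between different rats of a group it had a median of 0.240 over 16 pairs (0.132 to 0.318). The carriers of each rat were compared with their own mean over the 9 rats. ADBR3 6 had 9 of 35 carriers above that mean and was the lowest rat for 9 of them, with a median deviation of -0.051. ADBR3 7 had 24 of 35 above it. The other rats had 13 to 22, and the WT rats lay inside the range of the ADBR3 rats.

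The ADP/ATP carriers exchange matrix ATP for cytosolic ADP. Slc25a4, the form of heart and skeletal muscle, stood at 4.80, 4.77, 4.86 and 4.84 in WT 1, 3, 4 and 6 and at 4.72, 4.73, 5.03, 4.80 and 4.93 in ADBR3 1, 3, 5, 6 and 7. ADBR3 5 and 7 lay above all WT rats and ADBR3 1 and 3 below them, so the ADBR3 group was the wider of the 2, with an SD of 0.133 against 0.043. The difference was 0.026 ± 0.072 (SE; limma, adjusted p = 0.933). Slc25a5, the more widely expressed form, was at 7.06, 6.90, 6.90 and 6.96 in WT and at 6.89, 6.96, 7.00, 6.92 and 6.98 in ADBR3 rats on its first probe, a difference of -0.0052 ± 0.051 (SE). On its second probe the values were 2.67, 2.73, 2.73 and 2.80 in WT and 2.54, 2.69, 2.63, 2.67 and 2.62 in ADBR3 rats. There, 4 of 5 ADBR3 rats lay below all WT rats, and the difference was -0.106 ± 0.050 (SE; limma, adjusted p = 0.549 over all probes). The probes of Slc25a5 thus differed by 0.101 in the difference they gave.

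The transcript named Slc25a6 was the single carrier whose groups did not overlap, where 3.52% of all genes did not. It stood at 2.79, 2.85, 2.79 and 2.87 in WT and at 2.65, 2.70, 2.77, 2.76 and 2.73 in ADBR3 rats. All 5 ADBR3 rats were below all WT rats, with 2.77 in the highest ADBR3 rat and 2.79 in the lowest WT rats. The difference was -0.102 ± 0.046 (SE; limma, adjusted p = 0.529; exact two-sided permutation p = 0.0159). It was -0.060 with median scaling. The averaged labelings of WT 1 stood at 2.826 and 2.746, the latter below ADBR3 5 (2.771) and ADBR3 6 (2.759). Those of ADBR3 1 stood at 2.685 and 2.612. The gap between the groups was thus narrower than the distance between labelings of the same rat. The repeat hybridizations, which add no rat and which the test did not use, stood at 2.87 for WT heart 5 and 2.75 for ADBR3 heart 4. ADP/ATP carriers are close in sequence, and whether this probe also captures another copy was not tested.

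Slc25a3 brings phosphate into the matrix for ATP synthesis. Its level was 6.50, 6.41, 6.29 and 6.48 in WT and 6.26, 6.26, 6.33, 6.19 and 6.34 in ADBR3 rats. ADBR3 1, 3 and 6 were below all WT rats, and WT 4 lay inside the ADBR3 range. The difference was -0.144 ± 0.058 (SE), or 1.11-fold lower, with an unadjusted limma p of 0.0349 and an adjusted p of 0.506. It was -0.187 without WT 4 and -0.119 without WT 1. The repeat hybridizations, which add no rat, stood in the reverse order, at 6.31 for WT heart 5 and 6.39 for ADBR3 heart 4. Within slides that held both groups the difference was 0.049 (1 WT and 1 ADBR3 array), -0.224 (3 and 1) and -0.0057 (1 and 3). The 3 WT arrays of the second of these slides came from 2 rats, and the last slide held both repeat hybridizations, with WT heart 5 as its only WT array. The difference was -0.0088 within the first scan day (1 WT and 3 ADBR3 arrays) and -0.144 within the second (5 and 4). The only WT array of the first day was that of WT 4, the lowest WT rat here. The second day also held both repeat hybridizations.

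The ATP-Mg/phosphate carriers adjust the size of the matrix adenine nucleotide pool under the control of calcium. Slc25a25 was at 0.33, 0.25, 0.83 and 1.04 in WT and at 0.55, 0.59, 1.27, 0.62 and 0.93 in ADBR3 rats. The groups overlapped over most of their range, and the difference of 0.184 ± 0.204 (SE) was among the 3 largest upward ones. It was -0.0024 with slide as a block, 0.063 without WT 3, 0.064 without ADBR3 5, 0.089 without WT 1 and 0.326 without WT 6. Among the arrays tested, only the slide of WT 4 and ADBR3 7 and that of WT 1, WT 6 and ADBR3 1 held both groups. Values with slide as a block, here and below, therefore rest mainly on these rats. Slc25a23 differed by -0.039, with WT 3 low at 2.01. Without WT 3 its difference was -0.119, with an unadjusted limma p of 0.0289 and an adjusted p of 0.53. With slide as a block it was -0.165, with an unadjusted limma p of 0.0189 and an adjusted p of 0.986. Slc25a24 differed by -0.012. The second probe of Slc25a24 was well above background on 0 of 13 arrays, while the first was on all 13.

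The malate-aspartate shuttle needs a 2-oxoglutarate/malate carrier and an aspartate/glutamate carrier. Slc25a11, the former, was at 5.09, 5.03, 4.99 and 5.04 in WT and at 4.87, 5.05, 5.05, 4.96 and 5.03 in ADBR3 rats, a difference of -0.044 ± 0.053 (SE). ADBR3 1 and 6 were the lowest rats and the other ADBR3 rats lay among the WT rats. Slc25a12, the calcium-regulated aspartate/glutamate carrier of excitable tissues, was at 4.22, 4.10, 4.29 and 4.23 in WT and at 4.11, 4.22, 4.23, 3.99 and 4.51 in ADBR3 rats. The difference was -0.00034 ± 0.098 (SE), while ADBR3 rats spread from the lowest to the highest of all 9. Slc25a13, its relative best known from liver, was at -0.0061, 0.059, -0.118 and -0.091 in WT and at -0.0025, 0.344, -0.197, -0.099 and -0.132 in ADBR3 rats. ADBR3 3 was the highest rat, and the difference was 0.022 ± 0.107 (SE). The shuttle's enzymes Mdh1, Mdh2, Got1 and Got2 differed by -0.086, -0.0090, -0.089 and -0.0037.

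Slc25a20 takes acylcarnitines into the matrix in exchange for carnitine and thereby feeds fatty acid oxidation. Its level was 3.22, 3.19, 3.12 and 3.24 in WT and 3.26, 3.09, 3.24, 3.09 and 3.23 in ADBR3 rats. The groups lay on top of each other, with a difference of -0.012 ± 0.056 (SE; 95% interval -0.139 to 0.116 under limma's model for this probe). Cpt1b and Cpt2, the carnitine palmitoyltransferases of heart on either side of this step, differed by 0.081 and -0.061, and Crat, carnitine acetyltransferase, by 0.077.

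**Figure D3:**
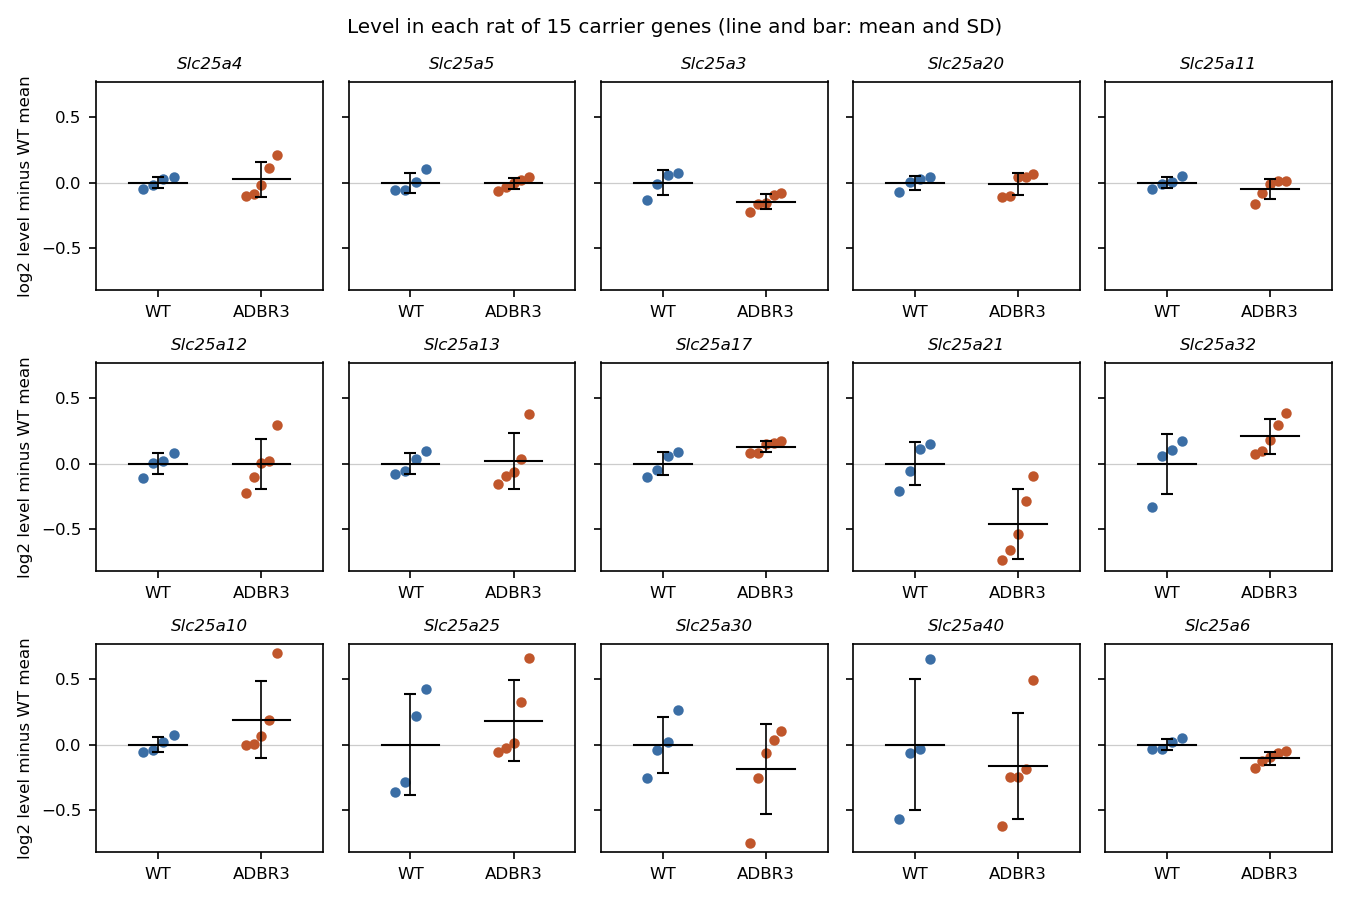
Level of 15 carriers in each of the 4 WT rats (blue) and 5 ADBR3 rats (orange), as log2 level minus the WT mean (y axis), with the group mean as a line and the SD as a bar. Slc25a6 has no overlap between groups, Slc25a21 has 4 of 5 ADBR3 rats below all WT rats, and Slc25a10 has 1 ADBR3 rat far above the rest.

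The largest difference among the carriers in the fit to genotype alone was that of Slc25a21, which moves oxodicarboxylates such as 2-oxoadipate, an intermediate of lysine and tryptophan breakdown. Its level was -2.64, -2.96, -2.60 and -2.81 in WT and -3.03, -2.85, -3.41, -3.48 and -3.29 in ADBR3 rats. ADBR3 1, 5, 6 and 7 were below all WT rats and ADBR3 3 lay among them. The difference was -0.461 ± 0.139 (SE), or 1.38-fold lower, with an unadjusted limma p of 0.00891, an adjusted p of 0.388 and an exact two-sided permutation p of 0.0317. Leaving out 1 rat at a time gave -0.394 (without ADBR3 6) to -0.553 (without ADBR3 3). It was -0.399 with quantile normalization, -0.318 with normexp, -0.257 with normexp and quantile normalization and -0.239 in the authors' deposited values, and the cause was not tested. With slide as a block it was -0.370, smaller than that of Slc25a30 (-0.464). The repeat labelings of WT 1 stood at -2.71 and -2.57 and those of ADBR3 1 at -2.96 and -3.11. The repeat hybridizations stood at -2.47 for WT heart 5 and -2.80 for ADBR3 heart 4, the latter inside the WT range. Within slides the difference was -0.685 (1 WT and 1 ADBR3 array), -0.265 (3 and 1) and -0.762 (1 and 3), and within scan days -0.479 and -0.462, over the same arrays as for Slc25a3. A sample of ventricle holds several cell types, and fewer cells of a type and less RNA per cell cannot be told apart in it.

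Slc25a10 exchanges malate and succinate for phosphate and is abundant in liver and fat. It stood at -1.03, -1.08, -1.14 and -1.15 in WT and at -1.04, -0.91, -1.09, -0.40 and -1.10 in ADBR3 rats. ADBR3 6 stood above all others, and the remaining 8 rats lay between -1.15 and -0.91. The difference was 0.191 ± 0.138 (SE; limma, adjusted p = 0.666) and 0.064 without ADBR3 6. Slc25a1, which exports citrate for fatty acid synthesis, was also highest in ADBR3 6, at -3.35 against -3.88 to -3.51 in the other rats. Of the 35 carriers, 3 were highest in ADBR3 6, the third being Slc25a17 (-0.033), and 9 were lowest there. In the same rat Adipoq, a marker of fat cells, was at -0.46 against -6.53 to -1.66 in the others, while Fabp4 (3.19) and Cidea (5.15) were higher in WT 6 (3.32 and 5.30). Of the 6 adipocyte markers, 3 were tested (Adipoq, Fabp4 and Cidea), and their mean level ran from 1.37 to 1.97 in WT and from 0.459 to 2.63 in ADBR3 rats, the last in ADBR3 6. The 4 atrial markers (Myl7, Sln, Nppa and Myl4) had a mean of 4.03 to 5.16 in WT and of 4.03 to 6.23 in ADBR3 rats, again highest in ADBR3 6. Myl7, Sln and Nppa were each highest in that rat, while Myl4 (7.405) was higher in ADBR3 7 (7.452). The part of fat or atrial tissue in the Slc25a10 value was not tested.

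Of the carriers of cofactors and nucleotides, 10 were tested, with 5 higher and 5 lower. Slc25a17, which carries coenzyme A and FAD into peroxisomes rather than mitochondria, stood at -0.31, -0.25, -0.12 and -0.15 in WT and at -0.046, -0.125, -0.059, -0.033 and -0.123 in ADBR3 rats. ADBR3 1, 5 and 6 were above all WT rats, and ADBR3 3 and 7 were just under WT 4. The difference was 0.130 ± 0.054 (SE), or 1.09-fold higher, with an unadjusted limma p of 0.0404 and an adjusted p of 0.512. It was 0.062 with slide as a block and 0.0855 with normexp. The repeat hybridizations, which add no rat, stood in the reverse order, at -0.13 for WT heart 5 and -0.17 for ADBR3 heart 4. Slc25a32, the folate and FAD carrier, was at -4.40, -4.01, -3.90 and -3.97 in WT and at -3.89, -4.00, -3.68, -3.97 and -3.77 in ADBR3 rats. The groups overlapped, WT 1 was the lowest rat, and the difference of 0.209 ± 0.112 (SE; limma, adjusted p = 0.579) was the largest upward one with this scaling. It was 0.098 without WT 1, 0.0465 with normexp and 0.0835 in the authors' deposited values. With normexp, Slc25a25 (0.178) and Slc25a10 (0.177) were larger.

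Slc25a40 was dim and varied most, from -4.44 to -3.22 in WT and from -4.50 to -3.38 in ADBR3 rats, with a difference of -0.163 ± 0.266 (SE). In each group the rat numbered 1 was the highest. The second probe of Slc25a40 was well above background on 1 array, that of WT 6, where it stood at -1.86 against -7.11 to -5.60 in the other 8 rats, while the first probe was lowest in WT 6 among the WT rats. Slc25a39, its close relative, differed by 0.012 on its first probe and 0.022 on its second. The coenzyme A carriers Slc25a16 and Slc25a42 differed by -0.0079 and 0.038. Slc25a26 (S-adenosylmethionine) differed by 0.079, and Slc25a33 and Slc25a36 (pyrimidine nucleotides) by -0.084 and -0.096.

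Of the 10 carriers of amino acids, 6 were tested, with 3 higher and 3 lower, and the differences lay between -0.013 and 0.051. Slc25a22 (glutamate) differed by -0.0071, Slc25a29 (basic amino acids) by 0.051, Slc25a38 (glycine, for haem synthesis) by -0.013 and Slc25a44 (branched-chain amino acids) by 0.047. Slc25a44 had the smallest SD between rats of all 35. Its values were 0.454, 0.452, 0.532 and 0.462 in WT and 0.508, 0.511, 0.552, 0.497 and 0.543 in ADBR3 rats, so WT 4 alone lay within the ADBR3 range and the other WT rats were below it. Its second probe was well above background on 1 array of each group.

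Both iron carriers were a little higher in the mean, Slc25a28 by 0.082 ± 0.087 (SE) and Slc25a37 by 0.091 ± 0.136 (SE), neither beyond its error. The uncoupling protein relatives Slc25a14 and Slc25a30 differed by -0.080 and -0.185. Slc25a30 was at 0.87, 0.36, 0.57 and 0.63 in WT and at -0.14, 0.35, 0.54, 0.71 and 0.64 in ADBR3 rats. ADBR3 1 stood alone below the others, and the difference was -0.044 without that rat, -0.096 without WT 1 and -0.464 with slide as a block. On the slide that ADBR3 1 shared with WT 1 and WT 6 it was -0.967, and on that of WT 4 and ADBR3 7 it was 0.073. Slc25a34 and Slc25a35, whose substrates are unsettled, differed by 0.013 and 0.056, and Slc25a46, an outer membrane member that acts in mitochondrial fission and lipid traffic, by 0.041.

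More than 1 probe was tested for 10 carriers, and for 7 of them all probes gave the same sign. Over the 17587 probes that passed the filter, 0.00569% had an adjusted p under 0.05, and 0 of the 46 carrier probes did. The probes disagreed in sign for Slc25a13 (0.022 and -0.018), Slc25a28 (0.082 and -0.238) and Slc25a42 (0.038 and -0.148). The second probe of Slc25a28, printed above, was at 0.15, 0.23, -0.23 and -0.18 in WT and at 0.050, 0.160, -0.080, -0.105 and -1.25 in ADBR3 rats. ADBR3 7 alone was low, and without it the difference was 0.014. The second probe of Slc25a42, which crosses an intron, was also lowest in ADBR3 7, at -3.48 against -3.29 to -2.93 in the other rats. Each of these second probes has 1 spot on the array. The first probe of Slc25a28 also has 1 spot, and that of Slc25a42 has 2.

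**Figure D4:**
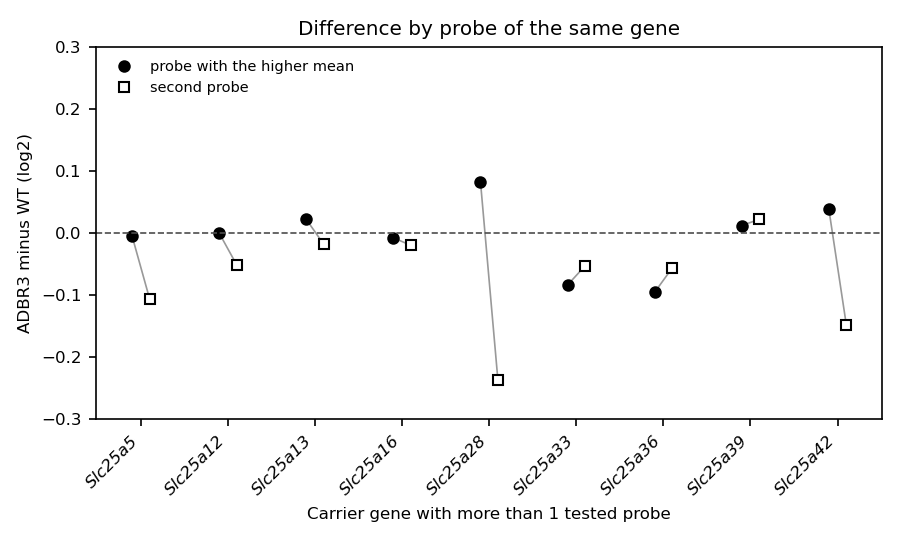
Difference between ADBR3 and WT rats on the log2 scale (y axis) for 9 of the 10 carriers with more than 1 tested probe (x axis), as a filled circle for the probe with the higher mean and an open square for the second probe, joined by a line. Slc25a28 and Slc25a42 have the widest gaps, 0.320 and 0.186.

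Genes that work with the carriers showed no call either. Over 5 lists, 0 genes passed the threshold in limma and 0 had an unadjusted p under 0.05, where 9.44% of all genes did. Of the 16 tested genes that import carriers into the inner membrane, 9 were higher and 7 lower, with a median of 0.025. Among them the import chaperone Timm8a1 differed by -0.105, and the import pore genes Tomm7 and Tomm40 by 0.067 and -0.063. Of 11 genes of the outer membrane channel and permeability transition, 3 were higher and 8 lower (median -0.035). Ppif, cyclophilin D, which favours opening of the permeability transition pore, differed by -0.238 ± 0.120 (SE; limma, adjusted p = 0.554). It was at 4.95, 4.79, 4.68 and 5.04 in WT and at 4.49, 4.99, 4.62, 4.44 and 4.59 in ADBR3 rats, with ADBR3 3 alone among the WT rats. Bcl2l1 and Bak1, which act on the outer membrane in cell death, differed by 0.236 and -0.088.

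Of 12 enzymes of the shuttles fed by carriers, 3 were higher and 9 lower (median -0.0085). Of 15 other transporters of the inner membrane, 10 were higher and 5 lower (median 0.022). Letm1, an ion exchanger, differed by 0.153. Slc24a6, the older name of the sodium-calcium exchanger of mitochondria, differed by -0.415. WT 6 stood at -2.10 against -3.68 to -3.25 in the other WT rats and -3.64 to -3.34 in ADBR3 rats, and without WT 6 the difference was -0.085. Of 5 family members under other names, 3 were higher and 2 lower. Mcart1, which RefSeq lists today as Slc25a51, differed by -0.197 ± 0.090 (SE; limma, adjusted p = 0.529), Mtch1 by 0.065, and Ucp2, an uncoupling protein, by 0.066. By accession, 3 array names outside the rule are Slc25a symbols in RefSeq (GRCr8) today: Mcart1, Mcart1l (Slc25a53) and RGD1559928 (Slc25a43).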

How the data were processed

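Scanner files of 13 one-colour (Cy3) arrays, design 028279, hold the intensity of each spot, deposited by the authors from Agilent Feature Extraction 10.7.1.1 (protocol GE1_107_Sep09), per the file headers. The processed signal is a background-subtracted intensity, per the file headers. The authors' deposited table of the series is in natural log units. Set against the scanner files, its values followed the natural log of the median signal, with slopes of 0.986 to 1.06 and column medians of 5.70 to 5.73. How that table was centred is not stated, and it served as an alternative.

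From the processed signal, log2 minus the array's 75th percentile over 58717 spots was computed. Spots of a probe were averaged, without outlier spots where another remained. Probes entered the tests if at least 0.5 of their spots were well above background in 4 or more of the 9 rats, and the brightest probe on average stood for its gene. Over 15367 genes, lmFit and eBayes of limma 3.58.1 (R 4.3.3, with the package data.table, version 1.17.8) were fitted to genotype alone, with p adjusted by Benjamini-Hochberg and a threshold of 0.05. For single genes, all 126 splits of the 9 rats gave a two-sided exact permutation test. The fit was tested on simulated data. Python 3.11.15 was used with numpy 2.4.6, pandas 2.3.3 and, for plots, matplotlib 3.10.9.

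The members and lists were chosen with earlier results of these data known. Rat by rat values are given for Slc25a4, Slc25a5, Slc25a3, Slc25a20, Slc25a11, Slc25a12 and Slc25a13, for members past the threshold or at an unadjusted p under 0.05, for the 3 largest differences each way, and for members whose groups do not overlap. Other genes whose values are given rat by rat (Slc25a44, Ppif and second probes) were chosen after their values were seen. The partner lists were family genes under other names, import of carriers, outer membrane channels and permeability transition, shuttle enzymes, and other inner membrane carriers, with up to 3 genes named from each by p, beside the enzymes of the shuttles described. The marker lists were cardiomyocyte, endothelial, fibroblast, erythroid, adipocyte, lymphocyte, macrophage and atrial.

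Gene names are those of the array. Through RefSeq (GRCr8), 36 of the 45 members were matched by accession and 9 by symbol. The array's coordinates are rn4, and the table was used for names only. Replicate rats are separate animals. The number of rats, 4 WT and 5 ADBR3, limits the precision. Alternatives were median and quantile scaling, normexp background correction (offset 50), the authors' values, other filters on dim probes, the mean of a gene's probes, a trended robust variance, the first labeling only, slide, scan day or heart number as a block, and leaving out each rat. Some items are not reported here.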

Additional observations from a re-analysis of the deposited data

Results flagged for a closer look

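Of 94 groups of rats (46 carrier probes and the median deviation of the carriers, in each genotype), 8 held a rat far from the others by Dixon's criterion, where chance alone gives about 1 in 20 groups. Slc25a10 was at -0.40 in ADBR3 6, with the next rat at -0.91. Slc25a23 was at 2.01 in WT 3, below 2.31 in the next rat. Slc25a36 was at -0.809 in ADBR3 7, below -0.570. Slc25a44 was at 0.532 in WT 4, above 0.462. Of the additional probes of a gene, that of Slc25a28 was at -1.25 in ADBR3 7 (next -0.105), that of Slc25a42 at -3.48 in ADBR3 7 (next -3.21), that of Slc25a33 at -3.92 in ADBR3 3 (next -3.59), and that of Slc25a16 at -3.08 in WT 3 (next -3.43). ADBR3 7 was the rat that stood apart in 3 of the 8 groups.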

How the results depend on the processing

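The count of 0 carriers past the threshold held under all 23 alternatives to the limma fit, with a smallest adjusted p of 0.252 (without ADBR3 3) to 0.986 (slide as a block), and so did the count of 0 partner genes. The 3 carriers at an unadjusted p under 0.05 became 5 with quantile normalization, 1 without a filter on dim probes, and 1 to 3 with 1 rat left out (1 without WT 1, ADBR3 1 or ADBR3 6). The median difference was 0.041 with median scaling, where that over all genes was 0.033. Slc25a21, Slc25a3 and Slc25a17 kept their direction under all 23, with unadjusted p under 0.05 in 20, 14 and 9 of them. Slc25a12 changed sign in 10, Slc25a4, Slc25a13 and Slc25a20 in 5 each, Slc25a5 in 4, and Slc25a25 and Slc25a40 in 1 each. The deviations of same-numbered hearts 1, 3 and 6 from their group means had correlations of 0.106, 0.035 and 0.124. Different-numbered hearts were not compared, so these values do not tell whether same-numbered hearts deviated together. The numbers were not used to pair rats. With the heart number as a replicate block 1 carrier was at an unadjusted p under 0.05 (Slc25a3), as in the same 6 rats without it. Carriers not well above background have no measurable difference here.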
